A study of Sus scrofa with 9 samples.

Results

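Ischemic and border zone myocardium of 3 female farm pigs were compared by GRO-seq, which maps RNA polymerases at work on DNA. An embolization coil had blocked the distal LAD, the left anterior descending artery, of each pig 24 hours before sampling. Each heart gave an ischemic, a border zone and a healthy sample, so 6 of the 9 libraries are of the zones compared and a replicate number stands for 1 pig. The healthy samples came from the same coil-treated hearts, and their values are given as a reference level. They also enter the level filter, the pig term and the shared estimate of spread, so the calls depend on them. A gene was compared where its annotated position averaged at least 0.5 RPKM (reads scaled by the kilobases of annotated span and by the library total) over the 9 libraries, and the longest such position stood for the gene. This kept 2104 of the 3952 genes of the table, with ITGB8 just inside at 0.5001 RPKM and GPN3 just outside at 0.4999 RPKM. The sources used here give no breed or age and no rule by which the zones were cut, and every sample was a collagenase cell suspension from which nuclei were taken.

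When a coronary artery closes, muscle cells in the unperfused territory lose oxygen and fuel and begin to die, while the rim beside perfused muscle survives under stress. Surviving cardiomyocytes depend on sarcomeres, on calcium cycling through the sarcoplasmic reticulum and on fatty acid oxidation, and leukocytes, endothelial cells and fibroblasts carry the early wound response. A nuclear run-on lets engaged polymerases extend their RNA with a labelled nucleotide, so the values are meant to follow transcription and not the stored mRNA. Carry-over of stored mRNA into these libraries was not tested.

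Library totals and reads were inferred from the RPKM values, as described under processing. By these totals, border zone libraries held 2187977 to 7005976 reads and ischemic libraries 883656 to 2134087, so the ischemic group was the shallower one. Ribosomal RNA positions took 0.733% to 1.62% of the reads in border zone and 2.00% to 4.39% in ischemic libraries. Low read counts of 1 to 30 were multiples of 3 in 32.8% of cases in ischemic replicate 1 and in 53.2% in ischemic replicate 3, where an even spread gives 33.3%. Whether reads within a library stand for separate molecules is not known, so the counting intervals and floors below cover counting error only. They pool reads over pigs of unlike depth and leave out the spread between pigs. Across genes, r of the log2 values was 0.743 to 0.763 between border zone libraries, 0.659 to 0.728 between ischemic libraries and 0.614 to 0.762 between the groups. The part of these differences in the results below was not tested. MYH7, the slow cardiac myosin heavy chain, was read in all 6 libraries, at 25.8 to 94.1 RPKM in ischemic and 49.3 to 89.8 RPKM in border zone libraries. This shows muscle in each library but not equal muscle levels. The cardiac muscle markers CSRP3, ACTN2, PLN and ATP2A2 were lower in every ischemic library than in any border zone library, as given below. In bulk tissue, fewer cells of a type and less transcription per cell cannot be told apart.

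Of the 2104 genes, 5 rose in ischemic against border zone myocardium (0.238%) and 24 fell (1.14%) at a limma adjusted p under 0.05, in a fit of all 9 libraries with the pig as a block. The genes that fell included the Z-disc genes CSRP3, ACTN2 and MYOT, the dystrophin complex genes DMD and SGCA, the calcium kinase CAMK2D, the metabolic genes PRKAA2 and PFKM and the muscle coactivator MYOCD. The genes that rose were HBB, PTMA, BMP4, PTGS2 and LTB. All 29 had the same sign in 3 of 3 pigs, and in all 29 the ischemic libraries lay wholly on 1 side of the border zone libraries. The calls were made on these same libraries, so this follows largely from the calling and is no separate support. Over all genes, 20.9% were higher and 21.7% lower in 3 of 3 pigs, and in 8.51% and 11.5% all ischemic libraries lay above or below all border zone libraries. At an unadjusted p under 0.05, 180 genes were higher (8.56%) and 223 lower (10.6%). The median log2 difference over all genes was -0.04, with 992 of the 2104 differences positive and 1110 negative.

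The count of calls depended on the test. A limma-voom fit of the reads recovered from the RPKM values called 87 genes higher (4.13%) and 119 lower (5.66%), and 24 of the 29 genes were among them, which is 82.8% of the limma calls and 11.7% of the voom calls. Leaving out any 1 library of either zone moved the limma counts by over 1.5 times: 1 rose and 6 fell without ischemic replicate 1, 2 and 11 without ischemic replicate 2, and 1 and 2 without border zone replicate 2. No gene passed limma without ischemic replicate 3, border zone replicate 1 or border zone replicate 3, with 332, 320 and 281 genes at an unadjusted p under 0.05. None passed without healthy replicate 1 or 3, which enter through the pig and the shared spread, or in the 6 libraries alone, with 392, 377 and 348 genes at an unadjusted p under 0.05. All 29 genes kept their sign in each of these fits.

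**Figure D1:**
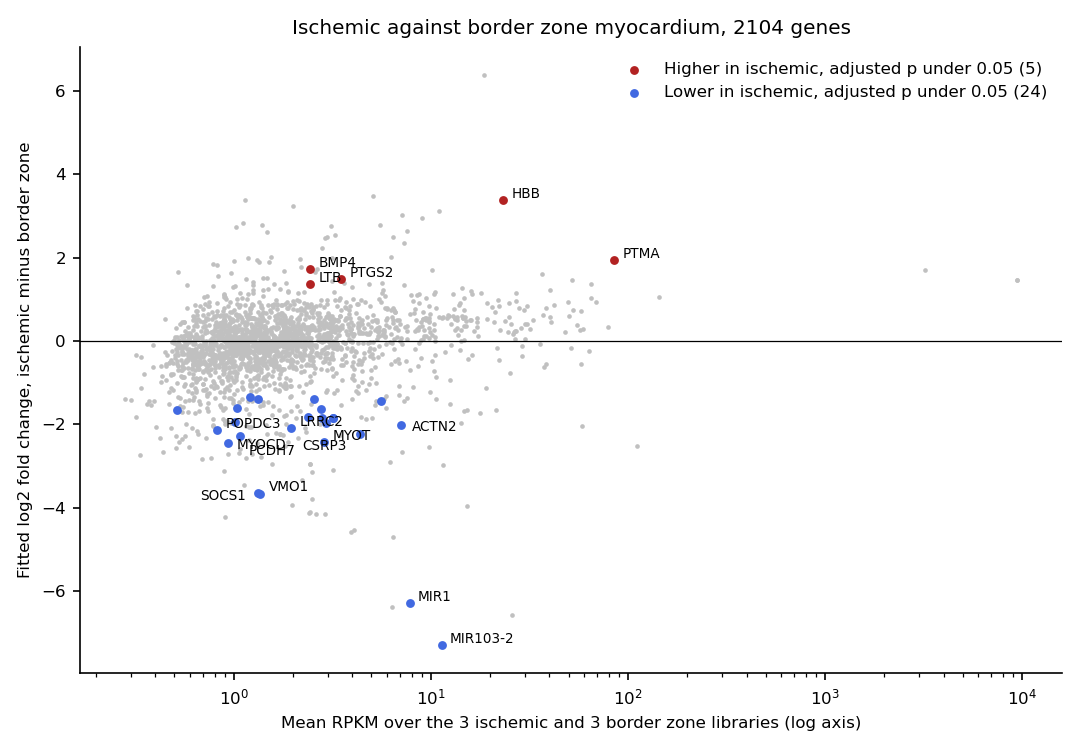
Each point is 1 of the 2104 genes, with its mean RPKM over the 6 ischemic and border zone libraries on a log x axis and its fitted log2 difference, ischemic minus border zone, on the y axis. The 24 genes that fell (blue) all have a lower mean level than HBB, which has the largest difference of the 5 that rose (red) at 3.38.

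The Z-disc anchors the thin filaments of the sarcomere, and the dystrophin complex ties the sarcomere to the cell membrane. Of 22 genes of the sarcomere and Z-disc tested, 5 fell and none rose, 8 were lower and 0 higher at an unadjusted p under 0.05, and limma-voom called 7 lower and 0 higher. Their median log2 difference was -0.69, with -1.22 after quantile normalization and, within pigs, -0.26 in pig 2 and -1.12 in pig 3, and 15 of the 22 were lower in 3 of 3 pigs.

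CSRP3, a LIM protein that binds the Z-disc, had 7.49, 8.22 and 6.12 RPKM in border zone and 1.18, 1.85 and 1.43 RPKM in ischemic myocardium of pigs 1 to 3. All 3 ischemic values lay far under the lowest border zone value. Its annotated span runs from 43258339 to 43279704 on chromosome 2 of susScr3, the build of all positions given here. CSRP3 fell by 2.23 on the log2 scale (SE 0.24, limma adjusted p = 0.0283), on 2084 and 126 pooled reads, and healthy myocardium had 14.8, 10.6 and 11.3 RPKM. ACTN2, the alpha-actinin that cross-links actin at the Z-disc, had 10.3, 14.2 and 9.42 RPKM in border zone and 1.86, 4.47 and 2.27 RPKM in ischemic libraries. The groups did not overlap, and pig 2 was the highest in both. ACTN2 fell by 2.02 (SE 0.26, limma adjusted p = 0.0283).

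SGCA, alpha-sarcoglycan of the dystrophin complex, lay at 1.50 to 1.81 RPKM in border zone and at 0.282 to 0.528 RPKM in ischemic libraries, a log2 difference of -1.94 (SE 0.22) from 242 against 17 reads. DMD, dystrophin itself, spans 2473191 bp on chromosome X and so gathered 29823 border zone and 1986 ischemic reads, at 0.580 to 1.21 against 0.123 to 0.295 RPKM. DMD fell by 1.64 (SE 0.26, limma adjusted p = 0.045), but another listed position of DMD with a higher mean RPKM had a log2 difference of 0.26. PDLIM3, an actinin-binding LIM protein, fell by 1.38 (SE 0.20), and its ischemic levels of 0.379, 0.650 and 1.03 RPKM lay under those of border zone. Healthy myocardium had 0.814 to 1.74 RPKM. MYOT, myotilin of the Z-disc, is in none of the lists and fell by 2.43 (SE 0.33), from 3.14, 8.11 and 3.57 RPKM to 0.633, 1.35 and 0.492 RPKM.

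The sarcomere list was not uniform. MYH7 had 59.2, 89.8 and 49.3 RPKM in border zone and 64.8, 94.1 and 25.8 RPKM in ischemic libraries, so 2 pigs were slightly higher and 1 lower. Its log2 difference was -0.24, with a 95% interval of -1.13 to 0.64, and it turned to 0.09 without ischemic replicate 3. Over all alternative settings the MYH7 difference ranged from -0.95 to 0.10. The difference between MYH7 and CSRP3 or ACTN2 was not itself tested. ANKRD1, a stretch-responsive nuclear protein of muscle, overlapped between the groups at 36.2 to 62.7 RPKM in border zone and 22.9 to 45.8 RPKM in ischemic libraries, a difference of -0.54 (95% interval -1.59 to 0.50).

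Among 11 genes of wall stress and the fetal programme, 1 fell, which is CSRP3 again, and none rose. At an unadjusted p under 0.05, 2 were lower and 1 higher, limma-voom called 2 lower and 0 higher. The median was -0.54, with -0.25 by limma-voom, -0.29 with thinned reads, -1.27 after quantile normalization and -0.26 to -0.19 within pigs. The natriuretic peptides, hormones that stressed heart muscle releases, varied widely between libraries. NPPB had 12.8, 8.55 and 10.3 RPKM in border zone, 7.66, 1.79 and 7.70 RPKM in ischemic and 0.249, 0 and 5.73 RPKM in healthy myocardium. All ischemic NPPB values were under all border zone values, and the log2 difference of -1.11 had an interval of -3.68 to 1.45. NPPA had 19, 16 and 4 border zone reads and 10, 0 and 5 ischemic reads in pigs 1 to 3, and its difference of -1.33 turned to 0.74 without ischemic replicate 2. FHL1, a LIM protein of stretched muscle, had -1.43 (SE 0.28, limma adjusted p = 0.0624).

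Excitation and calcium cycling let each beat start and end. Of 12 genes of calcium handling and ion channels tested, 3 fell and none rose, 9 were lower and 0 higher at an unadjusted p under 0.05, and limma-voom called 8 lower and 0 higher. All 12 had a negative log2 difference, 11 of them in 3 of 3 pigs, and their median was -1.38. The exception was GJC1 (-0.36, SE 1.50), which was higher in 2 pigs. GJC1 had 0.70 by limma-voom and 0.72 with thinned reads.

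POPDC3, a membrane protein of the Popeye family that binds cyclic AMP in muscle, had 1.15, 2.29 and 0.826 RPKM in border zone and 0.218, 0.272 and 0.175 RPKM in ischemic libraries. The ischemic values rest on 18 reads in all against 425, and POPDC3 fell by 2.14 (SE 0.27, limma adjusted p = 0.0283). ATP1B1, the beta subunit of the sodium pump, had 7.64, 10.1 and 6.91 RPKM against 3.14, 2.96 and 2.68 RPKM. The ischemic ATP1B1 values were close together, and ATP1B1 fell by 1.44 (SE 0.20, limma adjusted p = 0.0287), while another listed ATP1B1 position with a higher mean had 1.23. CAMK2D, the main cardiac calcium/calmodulin kinase, fell by 1.40 (SE 0.22, limma adjusted p = 0.044), from 2.86, 5.00 and 3.28 to 1.01, 1.98 and 1.11 RPKM on 15994 and 1647 reads.

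The pump and its brake missed the threshold. ATP2A2, the SERCA pump that refills the sarcoplasmic reticulum, had 7.81, 14.8 and 10.3 RPKM in border zone and 3.33, 6.21 and 3.15 RPKM in ischemic libraries, a log2 difference of -1.38 (SE 0.24, limma adjusted p = 0.0534). PLN, phospholamban, which restrains SERCA, had 17.4, 26.6 and 20.6 against 4.06, 14.6 and 4.85 RPKM, a difference of -1.67 (SE 0.44, limma adjusted p = 0.124). In both genes no ischemic library reached a border zone library, and pig 2 had the highest ischemic value. ADRB1, the beta-1 adrenergic receptor, was singled out after its values were seen: it had 9, 37 and 2 border zone reads and 1, 0 and 0 ischemic reads in pigs 1 to 3, a ratio of pooled reads per total of 15.7 with an exact 95% interval of 2.68 to 631 (limma adjusted p = 0.128).

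Several genes that fell belong to the same field but to none of the lists, and are named because every call is given. PDE3A, the phosphodiesterase that breaks down cyclic AMP in heart muscle, had 4.34, 6.19 and 4.50 RPKM in border zone and 1.01, 2.08 and 1.03 RPKM in ischemic libraries. PDE3A fell by 1.85 (SE 0.22, limma adjusted p = 0.0283) on 13177 and 1043 reads, and healthy myocardium lay higher still at 10.2 to 13.3 RPKM. SLC41A1, a magnesium transporter, fell by 1.85 (SE 0.28), with 3.64 to 6.91 RPKM in border zone and 0.911 to 1.78 RPKM in ischemic libraries. CLIC5, an intracellular chloride channel protein, fell by 1.63 (SE 0.23), with 3.48 to 5.66 against 1.00 to 1.86 RPKM.

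MYOCD, myocardin, is a coactivator of serum response factor that drives cardiac and smooth muscle genes. It had 1.26, 2.18 and 1.45 RPKM in border zone and 0.179, 0.447 and 0.0950 RPKM in ischemic libraries, and the lowest healthy value was 2.82 RPKM. MYOCD fell by 2.45 on the log2 scale, which is 5.45-fold (SE 0.30, limma adjusted p = 0.0283), on 3546 and 151 reads over its 154798 bp span at 59867285 to 60022083 on chromosome 12. It was the only 1 of 11 cardiac transcription factors that fell, and none rose. Of the 11, 5 were lower and 0 higher at an unadjusted p under 0.05, limma-voom called 4 lower and 0 higher, and the median was -0.34, with -0.51 after quantile normalization and -1.17 within pig 2.

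GATA6 and GATA4, zinc finger factors of the heart, came next. GATA6 had 7.18, 11.4 and 8.29 RPKM in border zone and 2.69, 4.05 and 2.05 RPKM in ischemic libraries, a difference of -1.61 (SE 0.28, limma adjusted p = 0.0534). GATA4 had 3.02, 3.45 and 2.01 against 1.01, 1.34 and 0.842 RPKM, a difference of -1.32 (SE 0.24, limma adjusted p = 0.0534). PROX1, a homeobox factor of heart muscle and lymphatic endothelium, had -1.06 (SE 0.20, limma adjusted p = 0.0542). In these 3 genes, too, the ischemic libraries all lay under the border zone libraries.

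MYOCD and PLN are also among the smooth muscle and pericyte markers, of which 10 were tested. MYOCD was the 1 that fell and none rose. Of the 10, 5 were lower and 1 higher at an unadjusted p under 0.05, limma-voom called 5 lower and 0 higher, and the median was -0.65. The members differed in direction: EDNRA, the endothelin A receptor of vascular smooth muscle, had 2.34 to 3.41 RPKM in border zone and 0.469 to 1.19 RPKM in ischemic libraries (3.99-fold lower, SE 0.38 on the log2 scale, limma adjusted p = 0.06), whereas TAGLN, the actin-binding transgelin, had 1.45 to 1.79 against 2.49 to 3.02 RPKM (0.77, SE 0.16, limma adjusted p = 0.0718).

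**Figure D2:**
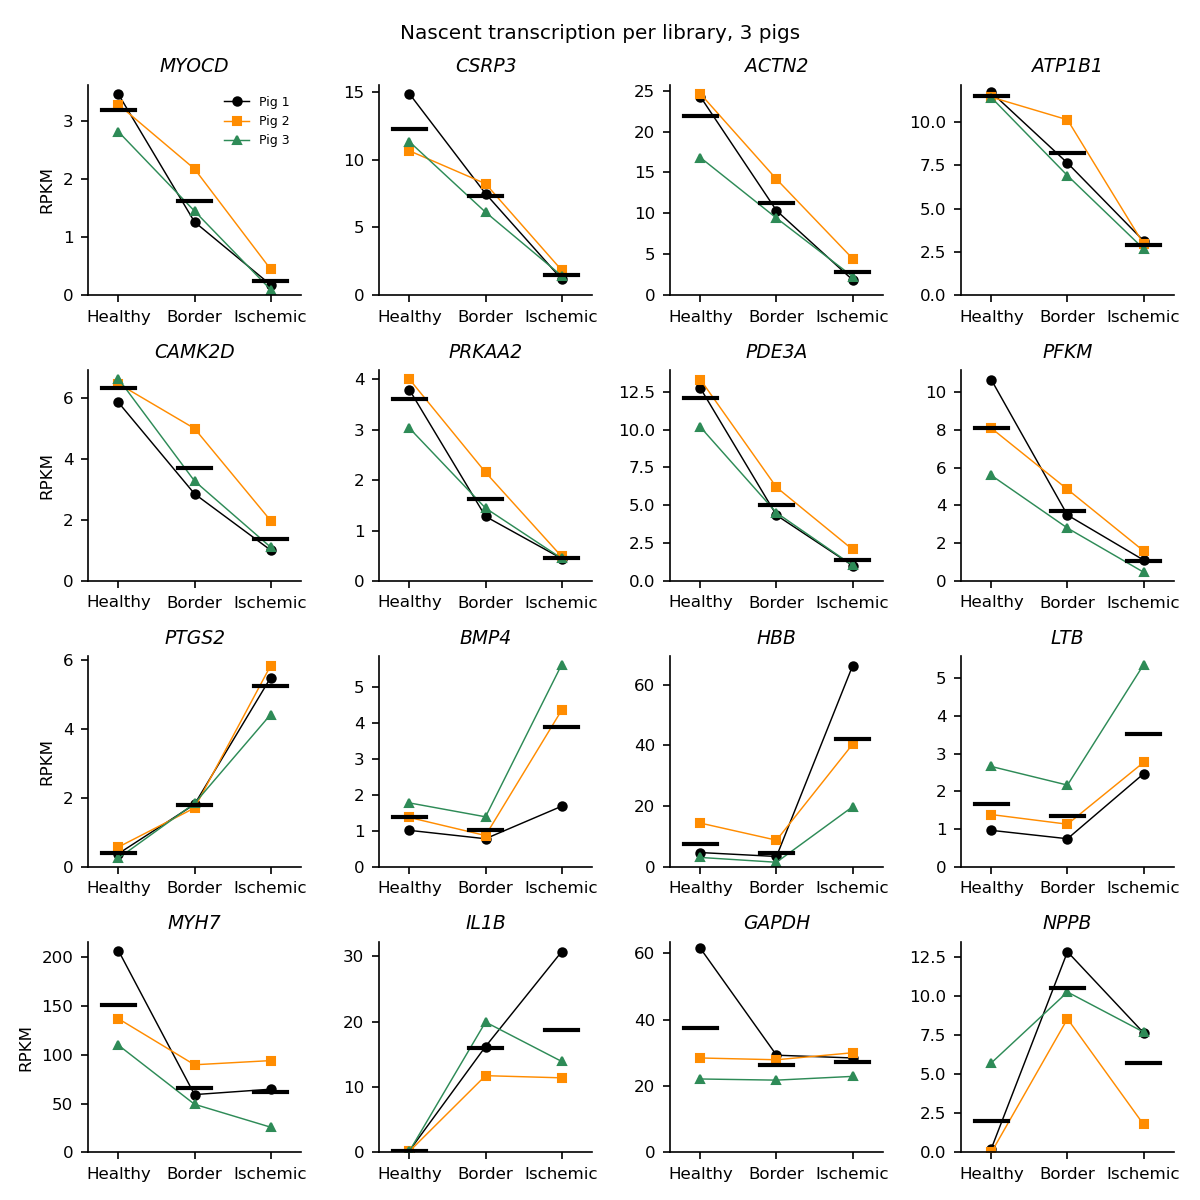
RPKM per library (y axis, linear from 0) in healthy, border zone and ischemic myocardium for 16 genes, with 1 marker and line per pig and a bar at the group mean. The 8 muscle and metabolic genes of the upper rows lie lowest in the ischemic libraries of each pig, PTGS2, BMP4, HBB and LTB lie highest there, and MYH7, IL1B and GAPDH overlap between border zone and ischemic libraries.

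Heart muscle draws most of its energy from fatty acids and switches toward glucose when oxygen is short. Of 29 genes of fatty acid uptake and oxidation, 1 fell and none rose, 13 were lower and 1 higher at an unadjusted p under 0.05, and limma-voom called 9 lower and 0 higher. The median was -0.62, and 18 of the 29 were lower in 3 of 3 pigs. PRKAA2, the catalytic alpha-2 subunit of the energy sensor AMPK, had 1.28, 2.15 and 1.44 RPKM in border zone and 0.444, 0.485 and 0.447 RPKM in ischemic libraries. The ischemic PRKAA2 values were almost equal across the 3 pigs, and it fell by 1.60 (SE 0.20, limma adjusted p = 0.0283), while another listed PRKAA2 position with a higher mean had -0.20 and no call. CD36, the fatty acid translocase, had 1.97 to 3.07 against 0.416 to 1.25 RPKM (-1.57, SE 0.31, limma adjusted p = 0.0624). ACACB, which makes the malonyl-CoA that holds back fatty acid oxidation, had -1.37 (SE 0.25, limma adjusted p = 0.0542), and SLC27A1, a fatty acid transporter, had -1.15 (SE 0.25, limma adjusted p = 0.0849).

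Of 47 genes of oxidative phosphorylation and the citrate cycle, none passed the limma threshold, while 13 were lower and 0 higher at an unadjusted p under 0.05 and limma-voom called 4 lower and 0 higher. Their median was -0.56, and 41 of the 47 had a negative difference. SDHB, the iron-sulfur subunit of complex II, had 2.59, 2.87 and 2.27 RPKM in border zone and 1.42, 1.84 and 0.565 RPKM in ischemic libraries (-1.09, SE 0.31, limma adjusted p = 0.137). The SDHB groups did not overlap. ATP5O of the ATP synthase had -1.33 (SE 0.33) and COX6C of complex IV had -0.94 (SE 0.25), each lower in 3 of 3 pigs. DHRS4, a carbonyl reductase that is in no list, fell by 1.96 (SE 0.32, limma adjusted p = 0.0492), from 3.63, 8.09 and 2.82 RPKM to 1.14, 1.07 and 0.950 RPKM.

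Genes of glycolysis and the hypoxia response lay on both sides of 0. Of 24 genes tested, 1 fell and none rose, 4 were higher and 4 lower at an unadjusted p under 0.05, limma-voom called 2 higher and 3 lower, and the median was -0.05. PFKM, the muscle phosphofructokinase, had 3.49, 4.85 and 2.80 RPKM in border zone and 1.11, 1.59 and 0.462 RPKM in ischemic libraries, and it fell by 1.83 (SE 0.27, limma adjusted p = 0.039). LDHB, the heart form of lactate dehydrogenase, had -1.18 (SE 0.22, limma adjusted p = 0.0534), with 0.32 at another listed position of higher mean. PGAM2, the muscle phosphoglycerate mutase, held 73 border zone and 5 ischemic reads (-2.96, SE 0.62, limma adjusted p = 0.083), and SLC2A4, the insulin-responsive glucose transporter GLUT4, had -1.36 (SE 0.36, limma adjusted p = 0.125).

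Other members had positive differences. HK2, hexokinase 2, had 1.73, 0.807 and 1.15 RPKM in border zone, 3.14, 1.29 and 2.78 RPKM in ischemic and 0.123 to 0.247 RPKM in healthy myocardium. Within each pig the ischemic HK2 value was the higher (0.88, SE 0.24, limma adjusted p = 0.132), although the ranges overlapped. LDHA, the anaerobic lactate dehydrogenase, had 13.8, 8.87 and 16.1 RPKM against 17.7, 11.8 and 27.1 RPKM (0.51, SE 0.20, limma adjusted p = 0.25) and 1.05 to 2.03 RPKM in healthy myocardium. HIF1A, the oxygen-regulated factor, had 0.39 (95% interval -0.13 to 0.92) and its target VEGFA had 0.33 (-0.24 to 0.89). GAPDH, a glycolytic enzyme often used as a reference, had 29.3, 27.9 and 21.8 against 28.5, 30.1 and 22.9 RPKM, and its log2 difference of 0.05 (-0.69 to 0.78) changed sign with the setting, at -0.42 after quantile normalization.

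The largest fitted differences belonged to short positions with few reads, where the fitted value depends on the pseudocount and is no measure of size. MIR1, the locus of a microRNA of heart and skeletal muscle at 69285393 to 69285500 on chromosome 17, had 1, 30 and 1 border zone reads and no ischemic read. Of its 32 border zone reads, 30 came from pig 2, and the fold is at least 3.48 against a floor of 3 reads over the ischemic group (limma adjusted p = 0.0283). MIR103-2 had 10, 2 and 5 border zone reads and no ischemic or healthy read, a fold of at least 1.85 (limma adjusted p = 0.0283). It passed the level filter only through its border zone values, and its ischemic and healthy values are all the pseudocount. Its call, though counted among the genes that fell, is therefore no support for a difference. Of 55 microRNA loci tested, these 2 fell and none rose, 9 were lower and 1 higher at an unadjusted p under 0.05, and limma-voom called 1 lower and 1 higher. At most 3 ischemic reads fell on 43 of the 55 loci and none on 30.

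SOCS1, a feedback inhibitor of cytokine signalling, had 12, 10 and 3 border zone reads and 1, 0 and 0 ischemic reads in pigs 1 to 3. Its ratio of pooled reads per total was 8.16 with an exact 95% interval of 1.34 to 335 (limma adjusted p = 0.0283), and in RPKM it was 1.65 to 4.07 in border zone against 0.553 to 0.882 in healthy myocardium. VMO1, whose name comes from the vitelline membrane of the egg, had 16, 17 and 2 reads against 1, 0 and 0, a ratio of 11.4 with an interval of 1.92 to 464 (limma adjusted p = 0.0283). MIR1, MIR103-2, SOCS1, VMO1 and LTB are the 5 calls that limma-voom did not make.

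The other genes that fell lie in no list. PCDH7, a protocadherin of cell adhesion, had 1.23, 2.57 and 1.67 RPKM in border zone and 0.192, 0.646 and 0.150 RPKM in ischemic libraries, on 10630 and 522 reads, and fell by 2.28 (SE 0.29, limma adjusted p = 0.0283). LRRC2, a leucine-rich repeat protein, fell by 2.08 (SE 0.30), from 3.09, 4.43 and 2.19 RPKM to 0.929, 0.727 and 0.417 RPKM. TSPAN12, a tetraspanin of Norrin signalling, fell by 1.85 (SE 0.27), from 2.86 to 6.37 RPKM to 0.923 to 1.32 RPKM. NHLRC2 had the smallest difference of the genes that fell, at -1.34 (SE 0.21, limma adjusted p = 0.0401), with 1.35 to 2.27 against 0.451 to 0.951 RPKM.

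HBB, the beta chain of haemoglobin, at 5633105 to 5634363 on chromosome 9, rose the most. It had 3.36, 8.74 and 1.45 RPKM in border zone, 66.3, 40.4 and 19.8 RPKM in ischemic and 4.66, 14.4 and 3.04 RPKM in healthy myocardium. Every ischemic HBB value was above every other value, on 96 border zone and 258 ischemic reads, and HBB rose by 3.38 on the log2 scale, which is 10.4-fold (SE 0.45, limma adjusted p = 0.0283). Only 2 of the 5 erythroid markers of the table were tested, HBB and the transferrin receptor, and HBB was the 1 that rose. The summed level of the 5, each read at its longest position as in the sums below, was 2.88 to 11.9 RPKM in border zone, 22.0 to 68.9 RPKM in ischemic and 6.19 to 17.7 RPKM in healthy libraries, and HBB itself made up most of the ischemic sum. Haemoglobin genes form a cluster of similar copies, so reads may be split or shared among them, and the part of blood cells in this result was not tested.

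PTMA, prothymosin alpha, was represented by a listed fragment of 385 bp, because a longer position lay under the level filter, and near-identical copies of this gene are common, so it is uncertain. The fragment had 38.0, 25.6 and 41.5 RPKM in border zone and 178, 100 and 129 RPKM in ischemic libraries, and rose by 1.94 (SE 0.26, limma adjusted p = 0.0283).

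**Figure D3:**
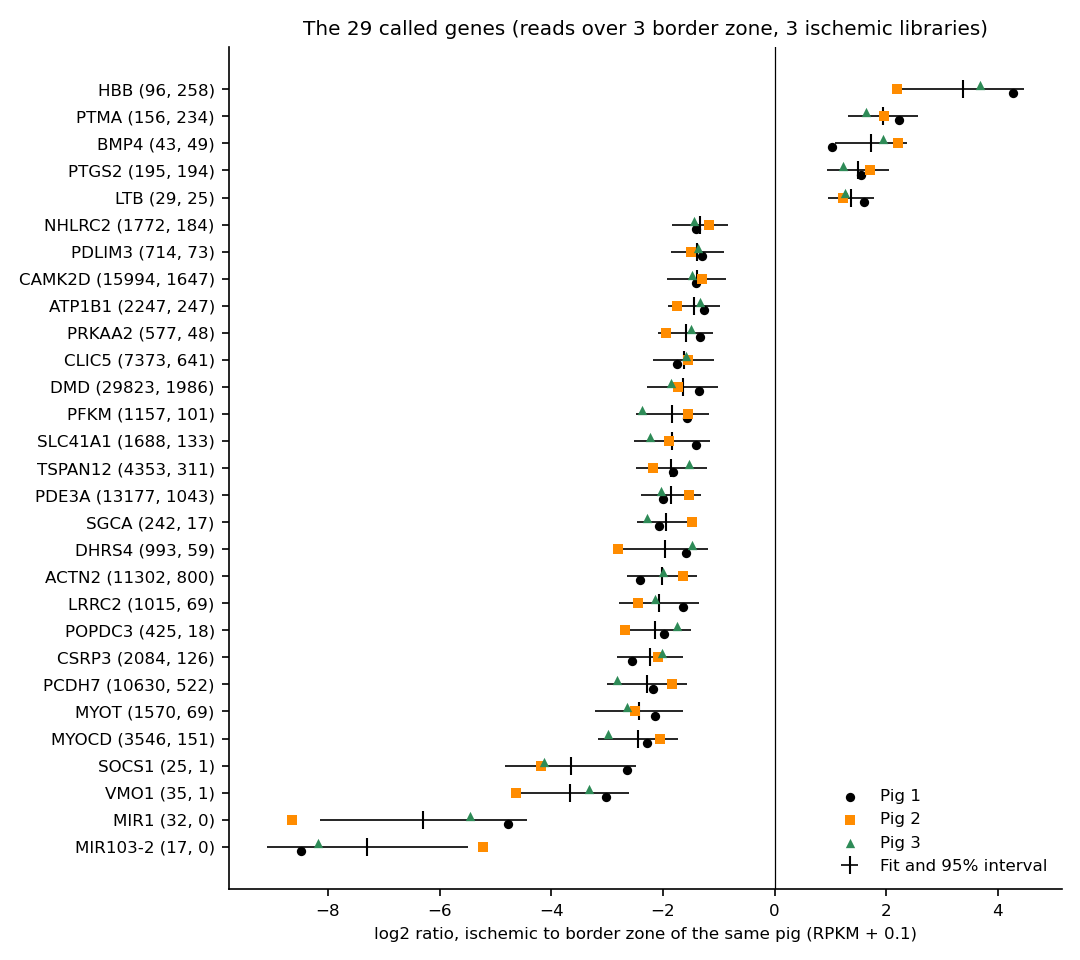
Log2 ratio of ischemic to border zone RPKM + 0.1 within each pig (markers) for the 29 genes, with the fitted difference and its 95% interval (cross and line) and the pooled border zone and ischemic reads in brackets. All 3 pigs lie on the same side of 0 for each gene, and the pigs lie farthest apart for MIR1 and MIR103-2, which have 0 ischemic reads.

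Injured tissue signals through prostaglandins, cytokines and chemokines, which draw leukocytes in. The list of cytokines and chemokines also holds the enzyme PTGS2. Of its 25 genes tested, PTGS2 and the cytokine LTB rose and none fell, 7 were higher and 1 lower at an unadjusted p under 0.05, limma-voom called 4 higher and 0 lower, and the median was 0.55, with 0.32 after quantile normalization. PTGS2, the inducible cyclooxygenase COX-2 at 140251667 to 140260362 on chromosome 9, had 1.81, 1.71 and 1.84 RPKM in border zone, 5.50, 5.85 and 4.43 RPKM in ischemic and 0.247 to 0.571 RPKM in healthy myocardium. The border zone values were almost equal, the 3 groups did not overlap, and PTGS2 rose by 1.50, which is 2.82-fold (SE 0.23, limma adjusted p = 0.0401). LTB, lymphotoxin beta, had 0.742, 1.13 and 2.17 against 2.47, 2.77 and 5.37 RPKM on only 29 and 25 reads, and rose by 1.37 (SE 0.17, limma adjusted p = 0.0283). Pig 3 had the highest LTB value in every group.

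IL1B, interleukin-1 beta, had 16.2, 11.7 and 19.9 RPKM in border zone and 30.7, 11.4 and 13.9 RPKM in ischemic libraries, against 0.167 to 0.262 RPKM in healthy myocardium. IL1B was higher in 1 pig and lower in 2, and its difference of 0.12 had an interval of -0.60 to 0.84, with -0.23 without ischemic replicate 1. CXCL8, a neutrophil attractant read here from a listed fragment of 3219 bp, had 0.29 (-1.04 to 1.61), and -0.39 after quantile normalization. IL6 had 10, 15 and 8 reads against 8, 16 and 6, which in RPKM is 0.486 to 0.829 against 0.850 to 3.18 (1.22, SE 0.53, limma adjusted p = 0.277). IL6 was higher in 3 of 3 pigs, and its ischemic range lay above that of border zone. CCL2, a monocyte attractant, had 22.8, 7.96 and 13.2 against 32.6, 14.8 and 39.9 RPKM (0.99, SE 0.38, limma adjusted p = 0.24). It too was higher in 3 of 3 pigs, and limma-voom called it higher (adjusted p = 0.047).

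AMCF-II, a pig CXC chemokine, had 1.05, 0.334 and 1.28 RPKM in border zone and 2.41, 3.69 and 4.24 RPKM in ischemic libraries (1.97, SE 0.45, limma adjusted p = 0.093). PPBP, a platelet chemokine, had 5 border zone and 8 ischemic reads, and SPP1, osteopontin, had 2.93 to 6.43 against 6.77 to 7.62 RPKM (0.79, SE 0.33, limma adjusted p = 0.261). Each of these 3 was higher in 3 of 3 pigs.

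Of 11 neutrophil markers tested, none passed the limma threshold, 2 were higher and 0 lower at an unadjusted p under 0.05, limma-voom called 1 higher and 0 lower, and the median was 0.25. The summed level of the 22 neutrophil markers in the table was 16.1 to 35.2 RPKM in border zone, 22.5 to 60.0 RPKM in ischemic and 2.36 to 5.75 RPKM in healthy libraries, and CYBA, FCGR3A, NPG1, PGLYRP1, PMAP-23 and PMAP-36 were listed at 0 in both zones. S100A8, a calcium-binding protein of neutrophils and monocytes, had 8, 12 and 0 border zone reads and 17, 11 and 6 ischemic reads in pigs 1 to 3 (3.47, SE 0.96, limma adjusted p = 0.135). Its neighbour S100A12, 15.1 kb away, had 1.15 (SE 0.42, limma adjusted p = 0.22).

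Of 22 monocyte and macrophage markers, none passed the limma threshold, 5 were higher and 1 lower at an unadjusted p under 0.05, limma-voom called 2 higher and 1 lower, and the median was 0.37. The lower 1 was CD36, which muscle also uses. Over the whole list, 15 differences were positive and 7 negative. The negative ones included C1QC (-1.43), C1QA (-1.33) and VSIG4 (-1.11), each at an unadjusted p above 0.05. Their sum over the 33 in the table was 39.7 to 65.3 RPKM in border zone, 61.3 to 89.7 RPKM in ischemic and 15.1 to 22.3 RPKM in healthy libraries, with CD163, GPNMB and TREM2 listed at 0 in both zones. CCR1, a chemokine receptor, had 2.84, 2.13 and 2.82 RPKM in border zone and 5.99, 5.14 and 10.0 RPKM in ischemic libraries, without overlap (1.36, SE 0.28, limma adjusted p = 0.0734). CD14, the endotoxin co-receptor, had 9.39, 3.81 and 6.92 against 13.3, 15.4 and 14.4 RPKM (1.18, SE 0.44, limma adjusted p = 0.23). ARG1, arginase 1, had 0.91 (SE 0.32, limma adjusted p = 0.209), and GPR84, a fatty acid receptor of activated myeloid cells, had 1.07 (SE 0.30, limma adjusted p = 0.135). The part of these leukocyte levels in the results for PTGS2 and LTB was not tested. Genes used by all cells, such as RPL23 and PSMB1, were listed at 0 too, so a 0 here says little about a marker.

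Of 7 lymphocyte markers tested, none passed, 1 was higher at an unadjusted p under 0.05, limma-voom called 0, and the median was 0.22, with 0.62 after quantile normalization and -0.25 within pig 3. That 1 was IL2RG, the common cytokine receptor gamma chain, with 0.62 (SE 0.22, limma adjusted p = 0.22). The sum of the 32 lymphocyte markers in the table was 9.91 to 18.6 RPKM in border zone and 11.7 to 22.6 RPKM in ischemic libraries.

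BMP4, a bone morphogenetic protein of the TGF-beta family at 203773960 to 203777590 on chromosome 1, had 0.776, 0.865 and 1.38 RPKM in border zone and 1.68, 4.35 and 5.61 RPKM in ischemic libraries. The lowest ischemic value exceeded the highest border zone value by little, on 43 and 49 reads, and BMP4 rose by 1.72 (SE 0.27, limma adjusted p = 0.0401). It was the 1 of 23 genes of TGF-beta signalling and the wound response that rose, and none fell. At an unadjusted p under 0.05, 5 were higher and 1 lower, limma-voom called 6 higher and 1 lower, and the median was 0.30. The receptors differed in direction: ACVR1B, an activin receptor, had 0.845 to 1.07 RPKM in border zone and 1.47 to 1.81 RPKM in ischemic libraries (0.70, SE 0.17, limma adjusted p = 0.109), and BMPR1A, a receptor for BMP4, had 0.695 to 1.03 against 0.234 to 0.567 RPKM (-0.91, SE 0.28, limma adjusted p = 0.16). HBEGF, a heparin-binding growth factor, had 0.75 (SE 0.24, limma adjusted p = 0.185).

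Of 20 endothelial markers none passed the limma threshold, but 10 were higher and 1 lower at an unadjusted p under 0.05, limma-voom called 6 higher and 1 lower, and the median was 0.62. The lower 1 was PROX1. Over the whole list, 14 differences were positive and 6 negative. The negative ones included RAMP2 (-2.01, SE 0.91) and ICAM2 (-0.46, SE 0.28), each lower in 2 pigs and higher in 1. NOS3, the endothelial nitric oxide synthase, had 1.02, 0.722 and 0.762 RPKM in border zone and 2.79, 1.95 and 1.19 RPKM in ischemic libraries (1.09, SE 0.29, limma adjusted p = 0.124). PECAM1, which joins endothelial cells, had 3.24, 2.77 and 2.93 against 4.54, 4.35 and 4.39 RPKM (0.56, SE 0.16, limma adjusted p = 0.144). EDN1, the vasoconstrictor endothelin-1, had 0.87 (SE 0.20, limma adjusted p = 0.104), and VWF, the platelet-binding von Willebrand factor, had 0.63 (SE 0.22, limma adjusted p = 0.206). The sum of the 27 endothelial markers in the table was 37.2 to 57.1 RPKM in border zone, 47.3 to 85.5 RPKM in ischemic and 26.7 to 32.5 RPKM in healthy libraries, with AQP1 listed at 0 in both zones.

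Clotting and its dissolution are controlled from the vessel wall. Of 11 genes of plasminogen, coagulation and thrombosis none passed the limma threshold, 4 were higher and 0 lower at an unadjusted p under 0.05, limma-voom called 4 higher and 0 lower, and the median was 0.53. PLAT, the tissue plasminogen activator, had 1.19, 1.30 and 1.68 RPKM in border zone and 2.70, 2.79 and 2.96 RPKM in ischemic libraries. The groups were well apart, and healthy myocardium had 0.557 to 0.660 RPKM (0.98, SE 0.19, limma adjusted p = 0.0624). PROCR, the endothelial protein C receptor, had 4, 17 and 0 border zone reads, 19, 10 and 6 reads in ischemic and none in healthy libraries (2.74, SE 0.75, limma adjusted p = 0.132).

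Of 13 matrix proteases and their inhibitors none passed, 4 were higher and 0 lower at an unadjusted p under 0.05, limma-voom called 3 higher and 0 lower, and the median was 0.46. ADAMTS1, a protease that cuts matrix proteoglycans, had 2.44, 2.31 and 2.09 RPKM in border zone and 5.56, 5.40 and 6.20 RPKM in ischemic libraries, and missed the threshold (1.29, SE 0.22, limma adjusted p = 0.0534). Its border zone values were also under the 2.77 to 4.72 RPKM of healthy myocardium. MMP14, a membrane-bound collagenase, had 1.03 (SE 0.33, limma adjusted p = 0.18), and CST3, cystatin C, had 0.98 (SE 0.33, limma adjusted p = 0.2). TIMP1, the metalloprotease inhibitor, had 19.3, 10.5 and 16.4 against 40.9, 15.3 and 31.0 RPKM (0.84, 95% interval -0.65 to 2.34), from 0 to 0.606 RPKM in healthy myocardium.

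Of 13 fibroblast and matrix genes none passed, 1 was higher and 1 lower at an unadjusted p under 0.05, limma-voom called 1 higher and 0 lower, and the median was 0.21, with -0.22 within pig 3. VCAN, the proteoglycan versican, had 1.92, 1.50 and 2.56 RPKM in border zone and 3.99, 3.63 and 4.27 RPKM in ischemic libraries (0.98, SE 0.27, limma adjusted p = 0.135). The fibrillar collagens lay closer: COL1A2 had 0.48 (95% interval -0.01 to 0.97) and COL3A1 had 0.21 (-0.36 to 0.78).

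Chaperones keep proteins folded under heat, energy loss or secretory load. Of 14 heat shock protein genes none passed the limma threshold, 8 were higher and 0 lower at an unadjusted p under 0.05, limma-voom called 6 higher and 0 lower, and the median was 0.71, with 0.41 after quantile normalization. HSP90AB1, the constitutive HSP90, had 10.4 to 11.7 RPKM in border zone and 22.5 to 28.5 RPKM in ischemic libraries. The border zone values were close together and all ischemic values were above them (1.16, SE 0.35, limma adjusted p = 0.154). HSP90AA1, the inducible HSP90, had 22.1, 18.1 and 11.1 against 47.6, 34.1 and 29.8 RPKM (1.14, SE 0.30, limma adjusted p = 0.126). DNAJB1, an HSP40 co-chaperone, had 0.91 (SE 0.24, limma adjusted p = 0.126), as had FKBP4, an HSP90 partner (SE 0.20, limma adjusted p = 0.0862).

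Of 15 genes of the unfolded protein response none passed, 5 were higher and 0 lower at an unadjusted p under 0.05, limma-voom called 3 higher and 0 lower, and all 15 differences were positive with a median of 0.47. CALR, the calcium-binding chaperone calreticulin, had 22.5, 14.6 and 17.7 RPKM in border zone and 47.7, 30.8 and 29.4 RPKM in ischemic libraries (0.96, SE 0.23, limma adjusted p = 0.108). MANF, a secreted stress factor, had 0.77 (SE 0.20, limma adjusted p = 0.122), HSP90B1, the endoplasmic HSP90, had 0.63 (SE 0.18, limma adjusted p = 0.148) and ATF4, a factor of the integrated stress response, had 0.83 (SE 0.28, limma adjusted p = 0.201).

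The next list holds ribosomal proteins and a few other genes of translation, of which EEF1A1, EEF1B2, EIF4A1, EIF4A2, EIF4G1 and TPT1 were tested, and 47 of its genes were tested in all. None passed the limma threshold, 20 were higher and 0 lower at an unadjusted p under 0.05, and limma-voom called 12 higher and 0 lower. Of the 47, 45 had a positive difference and 35 were higher in 3 of 3 pigs, with a median of 0.58 that was 0.29 after quantile normalization. RPS20 had 24.1, 20.5 and 27.6 RPKM in border zone and 69.2, 46.7 and 54.8 RPKM in ischemic libraries, and missed the threshold (1.23, SE 0.21, limma adjusted p = 0.0534). The ischemic RPS20 values were all well above the border zone values. RPL11 had 1.35 (SE 0.30), RPS3 had 1.14 (SE 0.28) and RPL13 had 0.92 (SE 0.24). Ribosomal protein genes have many processed copies in mammalian genomes, so their reads may be shared, and the ribosomal RNA share given above was also higher in the ischemic libraries.

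**Figure D4:**
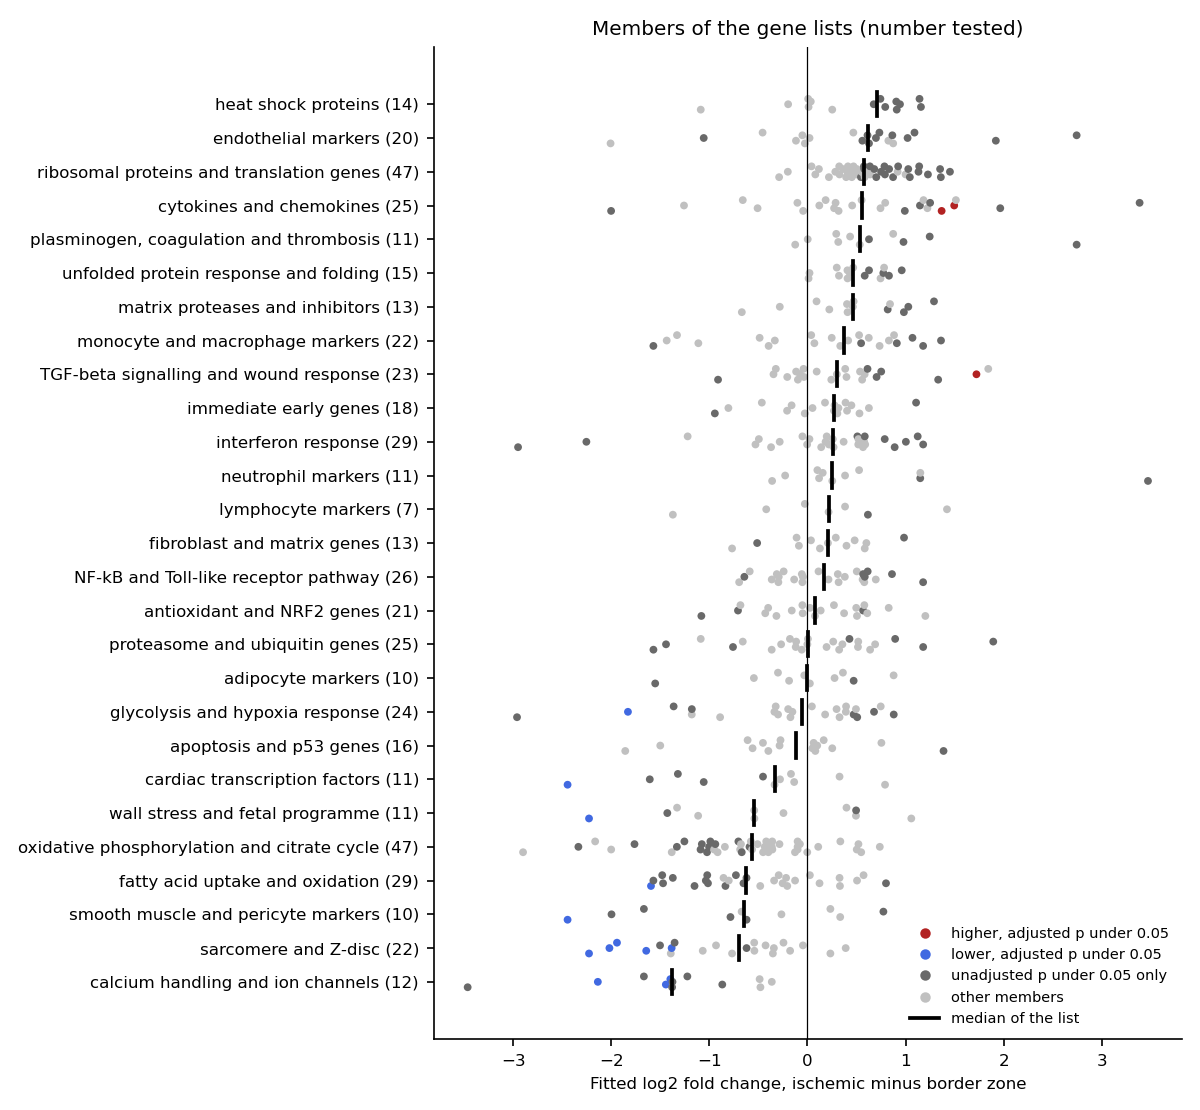
Fitted log2 difference, ischemic minus border zone (x axis), of the tested members of each list with at least 7 members tested (y axis, number tested in brackets), with a bar at the list's median. Calcium handling (-1.38) and sarcomere genes (-0.69) have the lowest medians on this scale, and heat shock (0.71) and endothelial genes (0.62) the highest, while after quantile normalization the heat shock median is 0.41 and the sarcomere median -1.22.

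HMGB1, a chromatin protein that injured cells release, had 9.62, 8.67 and 6.71 against 23.5, 21.1 and 16.3 RPKM, and missed the threshold (1.27, SE 0.24, limma adjusted p = 0.0576). The 16 genes of apoptosis and p53 had a median of -0.11, with 0 called by limma, 1 higher and 0 lower at an unadjusted p under 0.05, and 1 higher and 0 lower by limma-voom.

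Of 21 antioxidant genes 0 were called by limma, 1 was higher and 2 lower at an unadjusted p under 0.05, limma-voom called 1 higher and 1 lower, and the median was 0.08. CAT, catalase, had 0.965 to 1.25 RPKM in border zone and 0.340 to 0.680 RPKM in ischemic libraries (-1.08, SE 0.27, limma adjusted p = 0.114), HMOX2, the constitutive haem oxygenase, had -0.71 (SE 0.23), and SOD2, the mitochondrial superoxide dismutase, had 0.57 (SE 0.21, limma adjusted p = 0.22).

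The 26 genes of the NF-kB and Toll-like receptor pathway had a median of 0.16, which was 0.28 by limma-voom and 0.04 after quantile normalization, with 0 called by limma, 5 higher and 1 lower at an unadjusted p under 0.05, and 1 higher and 0 lower by limma-voom. ICAM1, an adhesion receptor for leukocytes, had 0.61 (SE 0.21, limma adjusted p = 0.201), and TRAF6, a ligase that passes on Toll-like receptor signals, had -0.64 (SE 0.21, limma adjusted p = 0.191). The 29 interferon response genes had a median of 0.26, with 0 called by limma, 7 higher and 2 lower at an unadjusted p under 0.05, and 0 higher and 1 lower by limma-voom. MAVS, the mitochondrial adaptor of RNA sensing, had 4.08, 9.31 and 4.07 RPKM in border zone and 1.12, 0.726 and 1.41 RPKM in ischemic libraries (-2.25, SE 0.39, limma adjusted p = 0.0534). The span of MAVS lies 46.7 kb from the MIR103-2 locus described above, on chromosome 17. TRIM26 had 0.79 (SE 0.20), TAP1, a peptide transporter of antigen presentation, 1.00 (SE 0.28) and the interferon regulatory factor IRF1 0.58 (SE 0.20), none of them past the threshold.

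Of 18 immediate early genes 0 were called by limma, 1 was higher and 1 lower at an unadjusted p under 0.05, the same counts as by limma-voom, and the median of 0.27 was -0.19 after quantile normalization. FOS, the AP-1 subunit induced within minutes of a stimulus, had 74.1, 32.3 and 49.9 RPKM in border zone and 75.0, 39.9 and 71.2 RPKM in ischemic libraries, against 6.53 to 7.58 RPKM in healthy myocardium. FOS was a little higher in each pig (0.28, 95% interval -0.45 to 1.00), and -0.44 after quantile normalization. MYC had 5.45, 4.02 and 6.49 against 10.4, 9.41 and 15.0 RPKM (1.11, SE 0.24, limma adjusted p = 0.0862), and NR4A3, an orphan nuclear receptor, had -0.94 (SE 0.23, limma adjusted p = 0.109).

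The 25 genes of the proteasome and ubiquitin list had a median of 0.00 and 0 calls by limma, with 4 higher and 3 lower at an unadjusted p under 0.05 and 0 higher and 3 lower by limma-voom, which were TRIM63, FBXO32 and PSMF1, a proteasome inhibitor. TRIM63 and FBXO32, the ubiquitin ligases MuRF1 and atrogin-1 of muscle wasting, were both lower in 3 of 3 pigs: TRIM63 had 5.02 to 12.5 RPKM in border zone and 2.13 to 3.56 RPKM in ischemic libraries (-1.44, SE 0.31, limma adjusted p = 0.0849), and FBXO32 had 2.66 to 3.64 against 0.829 to 1.34 RPKM (-1.57, SE 0.34, limma adjusted p = 0.0862). PSMB4, a proteasome subunit, had 0.89 (SE 0.20, limma adjusted p = 0.0867). Among 10 adipocyte markers, 0 were called by limma, 1 was higher and 1 lower at an unadjusted p under 0.05, limma-voom called 0 higher and 1 lower, and the median was 0.00, with AQP7, a glycerol channel, at -1.55 (SE 0.40, limma adjusted p = 0.12). Only 4 cell cycle genes and 1 gene of nerve, Schwann cells and epicardium passed the level filter.

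The genes that fell had longer spans than the genes that rose. The median span was 22825.5 bp for the 24 that fell, 1898 bp for the 5 that rose and 12301 bp for all genes tested. Exons took a median of 5.81% of the span in genes that fell, 45.5% in genes that rose and 12.5% in all genes. At an unadjusted p under 0.05 the spans were 22043 bp for the lower and 6788 bp for the higher genes. These are descriptions with no test, and reads are counted over introns as well as exons.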

How the data were processed

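The authors deposited 1 table of RPKM over annotated transcript spans, introns included per the file headers, for 4882 positions in 9 libraries. Reads were aligned to susScr3 with Bowtie per the submitters' processing notes. The sources used here do not give its version, the counting program, the strand setting or the handling of duplicate reads, so overlapping and antisense genes cannot be told apart. Each library total was inferred from the RPKM values, as the total that turns RPKM times span into whole reads. The search started from the smallest nonzero value, taken as a single read. With the totals so chosen, 100% of nonzero values were whole reads within 0.01. All read counts, floors and counting intervals rest on this inference. Symbols came from a RefSeq table of Sscrofa11.1, which left 89 positions unmatched, and 87 of the tested genes are represented by a position shorter than one under the filter.

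Values were taken to log2(RPKM + 0.1) and fitted with limma 3.58.1 in R 4.3.3 for all 9 libraries, with group and pig as terms and eBayes with trend and robust settings. A log2 difference on this scale understates the change of low genes that have reads in each library. Where libraries hold no read it depends on the pseudocount and can exceed the ratio of pooled reads. For SOCS1 the fit gave 12.6-fold and the pooled ratio was 8.16. Tests were 2-sided, with Benjamini-Hochberg adjustment over 2104 genes and a threshold of 0.05. SE and 95% intervals are those of the fit. The labels give the pig of each sample. In the border zone and ischemic libraries of 1 pig, deviations from the group means correlated at 0.18, 0.212 and 0.164, and in those of different pigs at -0.161 to -0.0142. The fit was checked on simulated data.

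Named genes were the 10 with the largest fitted difference in each direction past the threshold and of the same sign in all 3 pigs, filled up by the lowest unadjusted p where fewer passed. The 4 members of each of 30 lists with the lowest unadjusted p, a set of standard genes and the called microRNA loci were added, and other calls are named because all are given. A few genes that this rule names are not reported here. The comparison, the lists and the named genes were chosen with earlier results of these data known. Alternatives covered the block, pseudocount, level filter, scaling, choice of position, limma-voom on the recovered reads, thinned reads and left-out libraries and pigs. Tables and plots were made with pandas 2.3.3, numpy 2.4.6, matplotlib 3.10.9 and scipy 1.17.1 under Python 3.11.15. No sequence is shown, and promoter motifs were not analysed here.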

Additional observations from a re-analysis of the deposited data

How the results depend on the processing

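Depth limits the ischemic group most, and each pig gave 1 sample per zone, so the spread is that between 3 animals. The comparison called 5 genes higher and 24 lower in ischemic myocardium. Without the pig block, the replicate pairing, it called 3 higher and 21 lower, and with the block in the 6 libraries alone 0 and 0. A pseudocount of 0.5 RPKM gave 9 higher and 1 RPKM gave 10 lower, testing all 3339 genes with a read gave 0 and 0, limma-voom 87 and 119, and reads thinned to the smallest library 0 and 0. At an unadjusted p under 0.05, 348 genes passed in the 6 libraries alone, 512 without the filter and 332 with thinned reads. Plain eBayes called 3 higher and 15 lower, the position of highest mean RPKM 3 higher, the longest of all positions 38 lower, and spans of at least 500 bp, a setting added after the data were seen, 8 higher and 43 lower. Leaving out 1 library or 1 pig gave 0 to 4 genes higher and 0 to 19 lower. All 29 genes kept their sign in every setting that tested them, apart from DMD (0.26) and ATP1B1 (1.23) at the position of highest mean, where LDHB had 0.32. PRKAA2 had -0.20 there and with a filter at 2 RPKM. With a pseudocount of 1 RPKM the differences of MIR1, MIR103-2, VMO1, SOCS1, MYOCD, PCDH7, POPDC3, LRRC2, SGCA, PFKM, DMD, PRKAA2, PDLIM3 and NHLRC2 were smaller by over 1.5 times, for example -1.08 for MYOCD and -0.60 for DMD.

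Of the uncalled genes, some changed sign. With 1 library or 1 pig left out, MYH7 ranged from -0.55 to 0.10, NPPA from -2.79 to 0.74, GAPDH from -0.11 to 0.26, IL1B from -0.28 to 0.44 and CXCL8 from -0.031 to 0.70. Outside the left-out libraries and pigs, the lowest MYH7 value over the alternatives was -0.95. NPPA had 0.43 with thinned reads. GAPDH had -0.42 after quantile normalization, -0.013 by limma-voom and -0.0055 with thinned reads. FOS had -0.44, CXCL8 -0.39 and IL1B -0.19 after quantile normalization. For the changes that do not follow from fewer libraries, the cause was not tested.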

Other observations

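A pair of microRNA loci, chosen after their values were seen, are the 2 that limma-voom called. MIR208B lies on chromosome 7 inside the span of MYH7 and on its strand, and is processed from that gene's transcript. It had 16, 25 and 7 border zone reads and 2, 0 and 0 ischemic reads in pigs 1 to 3, a ratio of pooled reads per total of 7.83 with an exact 95% interval of 2.05 to 66.5, while the same ratio over the whole MYH7 span was 1.15 (1.12 to 1.19) on 19743 and 5594 reads. Both ratios pool the pigs, weighted by depth, and pig 2 was the deepest in border zone but pig 1 in ischemic libraries. Their intervals hold counting error only, so that of MYH7 does not show a drop within pigs, which differed in direction as given above. The limma fit gave MIR208B a difference of -6.58 (adjusted p = 0.102). MIR29B-1, of a family known to act on collagen mRNAs, had 0, 4 and 0 border zone reads, 5, 3 and 3 reads in ischemic and none in healthy libraries (limma adjusted p = 0.0921).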
